A study of Mus musculus with 8 samples.

Results

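Leukaemia inhibitory factor (LIF) was compared with interleukin 6 (IL6) in cultured mouse myotubes. The comparison sets the 2 libraries of the LIF group against the 2 libraries of the IL6 group, which are 4 of the 8 libraries of the series, and needs no control library. Libraries were assigned by the group named in their labels, and no measured value entered that choice. All cultures were wild type. Myoblasts from the limb muscles of pups aged 2 to 3 days were differentiated into myotubes in medium with 5% horse serum, and LIF or IL6 was present at 250 ng/ml for 48 h before harvest 72 h after differentiation. The other 4 libraries are 2 controls without added cytokine and 2 cultures given oncostatin M (OSM) at the same dose and time. They were used to estimate the spread between replicates and, for the controls, to give the starting level of a gene. The labels number the replicates of a group without saying whether they came from separate animals or dishes, so the p-values measure the spread between these libraries, which may be technical.

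LIF and IL6 belong to a cytokine family that shares the receptor subunit gp130, the product of Il6st. IL6 first binds its own receptor, encoded by Il6ra, and this complex engages gp130, whereas LIF binds the LIF receptor, encoded by Lifr, which pairs with gp130. In each case Janus kinases (JAK) at the receptor phosphorylate STAT transcription factors, above all STAT3, and STAT3 induces Socs3, whose product inhibits the receptor in turn. In muscle this family is known for effects on precursor growth, regeneration and wasting.

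Gene totals were 29482077 to 30025471 counts per library, and 15603 genes had enough counts to be tested. The IL6 libraries stood further apart from each other than the LIF libraries did, with 477 tested genes over 1 log2 unit apart between the IL6 replicates and 259 between the LIF replicates. On the first principal component of the 4 libraries, which held 45.3% of their variance, the LIF libraries stood at 18.58 and 17.72 and the IL6 libraries at -25.17 and -11.13. The second component, with 33.8%, separated the IL6 libraries from each other, at 17.89 and -26.45.

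A gene was called when edgeR's quasi-likelihood test gave a Benjamini-Hochberg adjusted p under 0.05 over all 15603 genes. By that rule 434 genes (2.78% of those tested) differed, of which 275 (1.76%) were higher and 159 (1.02%) lower with LIF. Among them 49 were at least 2-fold higher and 16 at least 2-fold lower. The smallest change called was 0.23 on the log2 scale, and the median change of all tested genes was -0.007. Protein-coding genes made up 420 of the 434. The count differed with the library left out: 82 genes were called without LIF replicate 1, 96 without LIF replicate 2, 359 without IL6 replicate 1, 739 without IL6 replicate 2, 629 and 614 without control replicates 1 and 2, and 234 and 232 without OSM replicates 1 and 2. Libraries were left out 1 at a time unless both of a group are named. With a LIF library left out, the remaining LIF library is assumed to vary as the other groups do. None of the 434 genes was called in the opposite direction under any of the 16 alternatives run. In all 434 the LIF and IL6 libraries did not overlap, so refits of the same libraries could hardly reverse a call.

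**Figure D1:**
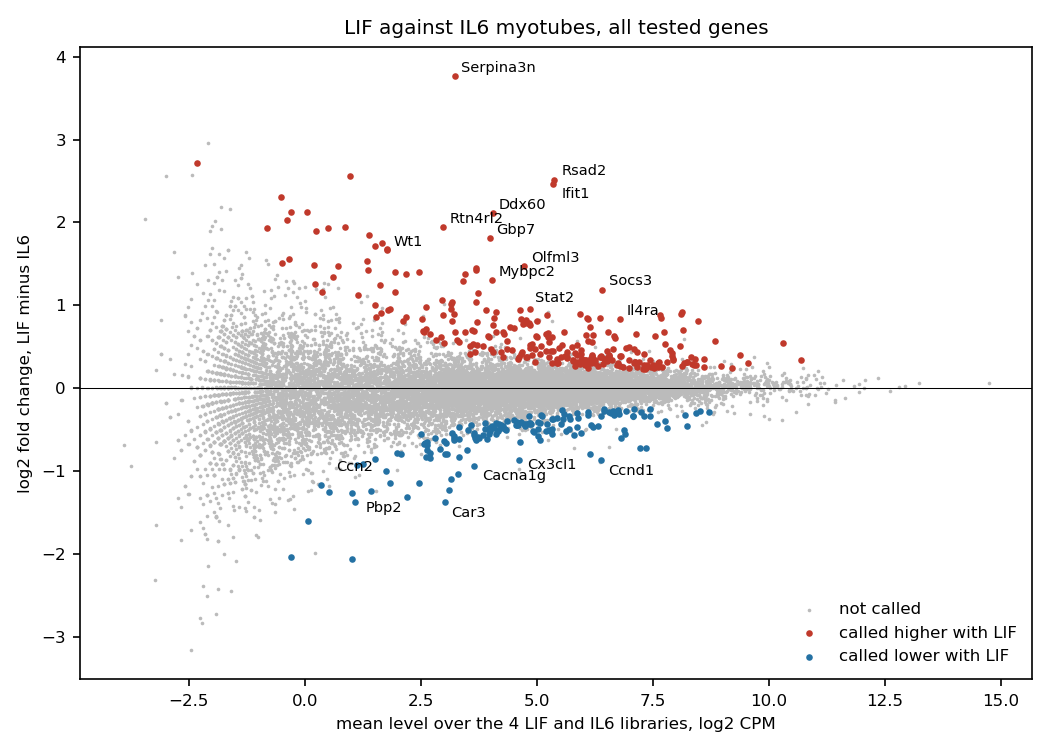
Log2 fold change of LIF minus IL6 (vertical axis) against mean level over the 4 libraries in log2 CPM, counts relative to library size (horizontal axis), with 1 point per tested gene; red and blue points are the 275 genes called higher and the 159 called lower with LIF. Serpina3n, Rsad2 and Ifit1 stand highest among the labelled genes, and Car3 lowest.

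The largest rises with LIF were those of a protease inhibitor and of genes of the antiviral response. Levels are given as CPM, counts relative to library size after TMM scaling (a trimmed mean of the log ratios between libraries). Serpina3n, which encodes a secreted serine protease inhibitor of the acute phase response, was at 16.5 and 18.7 CPM in the LIF libraries and at 0.694 and 1.89 CPM in the IL6 libraries. The groups stood well apart. The IL6 replicates, at only 21 and 56 counts, differed more as a ratio than the LIF replicates did. The log2 change was 3.77 (SE 0.29, adjusted p = 0.000178), and the controls, at 0.72 and 1.44 CPM, were in the range of the IL6 libraries. Rsad2, whose product viperin makes an antiviral nucleotide, was at 72.8 and 67.5 CPM with LIF and at 12.1 and 12.4 CPM with IL6. Its log2 change was 2.52 (SE 0.12, adjusted p = 2.39e-07). Ifit1, whose product binds RNA that lacks the host's cap structure, was at 71.3 and 67.4 CPM with LIF and at 13.8 and 11.3 CPM with IL6, a log2 change of 2.47 (SE 0.11, adjusted p = 2.39e-07). For these genes the LIF replicates lay close together and far from every IL6 and control library.

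Ddx60, which encodes an antiviral helicase, was at 27.4 and 26.3 CPM with LIF and at 6.35 and 6.03 CPM with IL6, a log2 change of 2.12. Rtn4rl2, a gene of the Nogo receptor family, was at 12.8 and 12.3 CPM with LIF and at 3.7 and 2.8 CPM with IL6, a log2 change of 1.95. Gbp7, which encodes a guanylate-binding protein of the interferon response, was at 25.3 and 24.2 CPM with LIF and at 6.78 and 7.35 CPM with IL6, a log2 change of 1.81 (SE 0.11, adjusted p = 9.67e-07). These 3 genes showed no overlap between the groups, which the rule for naming them required. Of all tested genes 43.5% showed none. The rest of the 12 largest rises were Wt1, a zinc finger transcription factor (log2 change 1.67), Olfml3, a secreted glycoprotein (1.47), Ccn5, a matricellular protein (1.45), Ifih1, the sensor of long double-stranded RNA (1.42), Htr2a, a serotonin receptor (1.40), and Tgtp2, an interferon-induced GTPase (1.40). Wt1 was at 4.97 and 5.42 CPM with LIF, at 1.79 and 1.48 CPM with IL6 and at 0.823 and 0.604 CPM in the controls, so its IL6 libraries lay between the other groups, but the IL6 minus control change of 1.19 had an adjusted p of 0.438. The call for Ccn5 was lost in 4 of the 16 alternatives, without IL6 replicate 1 and without either LIF replicate among them (adjusted p up to 0.217). Tgtp2 shares 90.6% of its 50-base stretches with transcripts of other genes, so its reads cannot be assigned with certainty. Gbp7 shares 12.8% of its stretches, and 11.3% of its exon bases are overlapped by another gene on the same strand.

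The largest falls were smaller than the largest rises. Car3, a carbonic anhydrase abundant in muscle, was at 3.8 and 5.19 CPM with LIF and at 11.2 and 12.2 CPM with IL6, a log2 change of -1.38 (SE 0.17, adjusted p = 0.000777). The control libraries were higher still, at 25.0 and 18.8 CPM, so the IL6 libraries lay between the controls and the LIF libraries, although the IL6 minus control change of -0.90 had an adjusted p of 0.136. Over all tested genes the lowest adjusted p of IL6 minus control was 0.103. Ccnd1 encodes cyclin D1, which drives cells from G1 into S phase. It was at 56.8 and 62.1 CPM with LIF and at 116.5 and 100.7 CPM with IL6, a log2 change of -0.87 (SE 0.08, adjusted p = 0.000106), and its controls, at 122.4 and 112.2 CPM, were close to the IL6 libraries. Cacna1g, a T-type calcium channel subunit, was at 9.04 and 8.17 CPM with LIF, at 14.5 and 18.4 CPM with IL6 and at 25.2 and 23.2 CPM in the controls, with an adjusted p of 0.438 for IL6 minus control. Its log2 change was -0.93 (SE 0.13, adjusted p = 0.00212).

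The other genes among the 12 largest falls were Pbp2 (log2 change -1.32), Dock8 (-1.15), Dmp1 (-1.14), Car8 (-1.10), Acsbg1 (-1.04), Ccn2 (-1.0), Nqo1 (-0.87), Stum (-0.85) and Etv4 (-0.84). Car8 encodes a carbonic anhydrase relative without the enzyme activity, Ccn2 a matricellular growth factor, Nqo1 a quinone reductase and Etv4 a transcription factor of the ETS family. Nqo1 stood at 16.8 and 17.9 CPM with LIF and at 25.6 and 37.9 CPM with IL6, with the IL6 libraries apart from each other but above the LIF libraries. Of the 12 falls, Car3 and Ccnd1 remained called under every alternative. The other 10 lost their call without LIF replicate 1, without LIF replicate 2 or without either, with adjusted p of up to 0.0508 for Cacna1g and up to 0.377 for Ccn2. Dock8, Ccn2 and Stum also lost it without IL6 replicate 1 and without either OSM replicate. Ccnd1 shares 27.2% of its 50-base stretches with other transcripts.

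**Figure D2:**
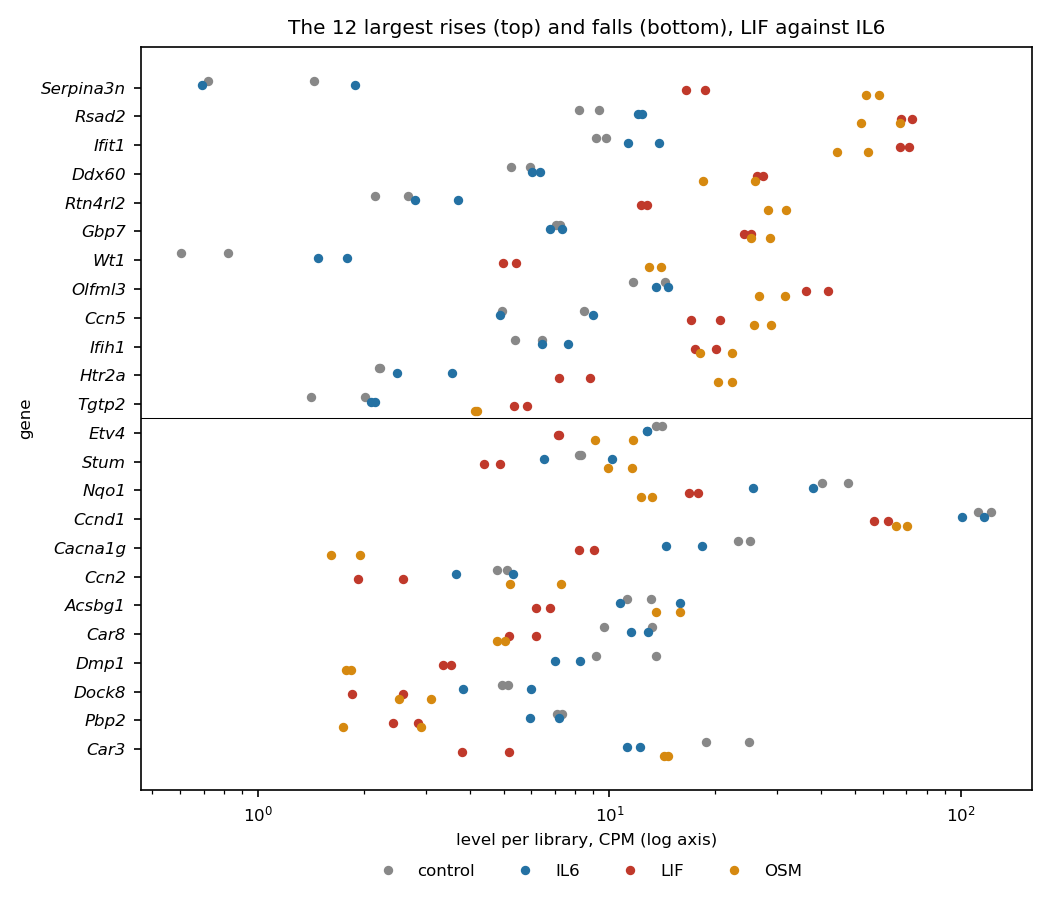
Level of the 12 largest rises (above the line) and 12 largest falls (below it) in each library, in CPM on a log axis; each point is 1 library, coloured by group. In all 24 genes the LIF points lie beyond the IL6 points without overlap, because the genes were chosen that way. In several genes, Car3, Cacna1g, Dmp1, Nqo1, Wt1 and Rsad2 among them, the IL6 points lie between the control and LIF points.

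Of all tested genes 2.78% were called, 1.76% higher and 1.02% lower, and these are the shares to set beside each list below. Among 13 tested genes of gp130-family receptors and ligands, Osmr, the OSM receptor subunit, was the sole gene called (7.7%). It was at 108.2 and 104.3 CPM with LIF and at 86.8 and 74.2 CPM with IL6, a log2 change of 0.40 (SE 0.08, adjusted p = 0.0205), and the call was lost without either LIF replicate (adjusted p up to 0.221). The shared subunit gene Il6st was at 566.9 and 542.5 CPM with LIF and at 530.6 and 549.0 CPM with IL6, with overlapping groups and a log2 change of 0.04 (SE 0.07, adjusted p = 0.882). Lifr was at 107.1 and 117.1 CPM with LIF and at 95.3 and 102.2 CPM with IL6, a log2 change of 0.18 (SE 0.09) with an adjusted p of 0.401. Il6ra, the receptor chain that binds IL6 itself, was present at 5.79 and 4.92 CPM in the IL6 libraries and at 7.4 and 8.34 CPM in the LIF libraries. Its log2 change of 0.55 (SE 0.14) had an adjusted p of 0.055, and it was called under 4 of the alternatives, including those without control replicate 1 or 2 (adjusted p = 0.0118 at the lowest).

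Downstream of the receptor, 5 of the 10 tested JAK and STAT genes (50%) were higher with LIF and none was lower. Of all tested genes 1.76% were higher. The median log2 change of the 10 was 0.25. Stat2, a part of the complex that carries type I interferon signals, was at 50.1 and 47.2 CPM with LIF and at 24.7 and 27.9 CPM with IL6, a log2 change of 0.89 (SE 0.08, adjusted p = 9e-05). Stat5a, a STAT best known downstream of growth hormone and prolactin, was at 45.3 and 44.2 CPM with LIF and at 28.9 and 27.9 CPM with IL6, a log2 change of 0.65. Jak2 was at 50.3 and 53.5 CPM against 37.6 and 36.8 CPM, a log2 change of 0.48. In all 3 genes the IL6 libraries stayed near the controls, with IL6 minus control log2 changes of 0.00 for Stat2, 0.15 for Stat5a and 0.17 for Jak2, against LIF minus control changes of 0.89, 0.81 and 0.65 from the same control libraries. Stat3 itself was at 209.9 and 215.3 CPM with LIF and at 173.2 and 182.0 CPM with IL6, a log2 change of 0.26 (SE 0.06, adjusted p = 0.0303) that lost its call in 7 alternatives (adjusted p up to 0.319), among them leaving out IL6 replicate 1, either LIF replicate or either OSM replicate. Jak2 was not called without LIF replicate 2, and the count of 5 fell to 3 without IL6 replicate 1, LIF replicate 1 or either OSM replicate and to 2 without LIF replicate 2.

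Of 13 feedback inhibitors, 2 (15.4%) were higher with LIF and none lower, with a median log2 change of 0.06. Socs3 was at 117.3 and 119.5 CPM with LIF, at 50.5 and 53.3 CPM with IL6 and at 41.5 and 44.1 CPM in the controls. The LIF replicates differed little from each other, and the log2 change from IL6 was 1.19 (SE 0.06, adjusted p = 3.39e-07). Against the same control libraries Socs3 stood 1.47 higher on the log2 scale with LIF (adjusted p = 3.16e-08) and 0.28 higher with IL6 (adjusted p = 0.514). Socs2, a feedback inhibitor of growth hormone signals, was at 40.8 and 39.5 CPM with LIF and at 29 and 27.6 CPM with IL6, a log2 change of 0.50 (SE 0.09, adjusted p = 0.00816), and was not called without either LIF replicate.

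The median log2 change of 17 tested genes known as STAT3 targets was 0.17. Of these, 6 were higher with LIF and 1, Ccnd1, was lower (41.2% called). Besides Serpina3n, these included Il4ra, the receptor chain for IL-4 and IL-13, Timp1, an inhibitor of matrix metalloproteinases, and Bcl3, a partner of NF-kB. Timp1 was at 126.6 and 121.5 CPM with LIF and at 84.2 and 78.8 CPM with IL6, a log2 change of 0.61 (SE 0.07, adjusted p = 0.000584). Bcl3 was at 23.6 and 25.4 CPM with LIF and at 16.4 and 16.6 CPM with IL6, a log2 change of 0.57 (SE 0.09, adjusted p = 0.00543), and its call was lost without LIF replicate 2 (adjusted p = 0.112). The count of 6 fell to 4 without LIF replicate 1 and to 3 without LIF replicate 2.

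Among 24 genes of the acute phase and complement, 13 had enough counts, with a median log2 change of 0.82. Of these, 3 (23.1%) were called higher with LIF and none lower. The 3 were Serpina3n, the complement component C3 and Cp, which encodes the copper-carrying ferroxidase ceruloplasmin. C3 was at 11.8 and 11.7 CPM with LIF and at 6.02 and 6.03 CPM with IL6, a log2 change of 0.96 (SE 0.13, adjusted p = 0.00152). Cp was at 134.7 and 148.3 CPM with LIF, at 110.2 and 91.5 CPM with IL6 and at 61.2 and 70.0 CPM in the controls. Here the IL6 libraries lay above the controls as well, but the IL6 minus control change of 0.62 had an adjusted p of 0.103. The LIF against IL6 change of 0.49 (SE 0.09, adjusted p = 0.0139) lost its call without either LIF replicate. Without LIF replicate 1 or 2 the list had 2 genes called, and without LIF replicate 2 its median was 0.54. The genes of this list left untested were low in every library, with Fga and Fgg at 0 counts throughout.

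Interferon-induced antiviral genes were the longest list. Of 46 genes listed, 40 were tested, 14 of these (35%) were higher with LIF and none lower, where 1.76% of all tested genes were higher, and the median log2 change of the 40 was 0.52 against -0.007 over all tested genes. The 14 were Rsad2, Ifit1, Gbp7, Ifih1, Cmpk2, Oasl1, Gbp3, Isg15, Gbp2, Irgm1, Irgm2, Xaf1, Samhd1 and Trim25. Both LIF libraries lay above both IL6 libraries in 32 of the 40 genes, where 21.3% of all tested genes did so, and below them in 1. Ifih1, which was described above as an RNA sensor, was at 20.1 and 17.5 CPM with LIF and at 7.6 and 6.44 CPM with IL6 (log2 change 1.42, SE 0.14, adjusted p = 0.000156). The change was uneven within the list: Irf1, Bst2 and Ddx58, which interferon induces in many cells, were not called, and the Oas genes other than Oasl1 were either not called or too low to be tested. The summed level of the 46 genes was 734.3 and 717.6 CPM with LIF, 440.7 and 464.3 CPM with IL6 and 526.1 and 447.2 CPM in the controls, so the IL6 libraries lay at the level of the controls. The count of 14 fell to 10 without IL6 replicate 1 or either OSM replicate, 11 without both OSM libraries and 8 without either LIF replicate, with none lower in each case.

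To show the sequences upstream of genes that were higher with LIF, promoter windows of 300 bases (250 before to 50 after the gene's start, RefSeq, build GRCm38.p6) were searched on both strands for the core of the interferon-stimulated response element, GAAANNGAA, and for the STAT element TTCNNNGAA. Windows were found for 211 of the 275 genes higher with LIF, 122 of the 159 lower genes and 11128 of the 15603 tested genes, and some genes have several windows. The 250 bases before the start are printed for 4 antiviral genes among the 12 largest rises and for the feedback gene Socs3. They were chosen because they hold a match, and Serpina3n and Rtn4rl2, also among the largest rises, hold none. The matches are in capitals (GAAANNGAA for the first 4, in either orientation, and TTCNNNGAA for Socs3).
Ifit1, chr19:34640639-34640888, plus strand: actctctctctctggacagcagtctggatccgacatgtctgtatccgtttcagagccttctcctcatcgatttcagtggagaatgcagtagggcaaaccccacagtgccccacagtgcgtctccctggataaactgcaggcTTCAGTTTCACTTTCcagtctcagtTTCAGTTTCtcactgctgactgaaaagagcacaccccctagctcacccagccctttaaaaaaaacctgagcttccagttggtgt
Rsad2, chr12:26456453-26456702, minus strand: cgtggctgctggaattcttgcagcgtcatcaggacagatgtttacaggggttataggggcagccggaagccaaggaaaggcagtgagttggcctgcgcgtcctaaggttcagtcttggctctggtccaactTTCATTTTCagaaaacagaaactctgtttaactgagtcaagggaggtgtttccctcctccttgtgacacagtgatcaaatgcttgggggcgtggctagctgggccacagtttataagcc
Gbp7, chr3:142530086-142530335, plus strand: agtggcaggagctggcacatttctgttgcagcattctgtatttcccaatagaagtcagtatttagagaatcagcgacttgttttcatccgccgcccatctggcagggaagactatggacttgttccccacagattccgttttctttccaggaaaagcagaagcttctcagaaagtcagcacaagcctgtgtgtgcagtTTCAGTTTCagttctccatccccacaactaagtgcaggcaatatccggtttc
Ddx60, chr8:61927837-61928086, plus strand: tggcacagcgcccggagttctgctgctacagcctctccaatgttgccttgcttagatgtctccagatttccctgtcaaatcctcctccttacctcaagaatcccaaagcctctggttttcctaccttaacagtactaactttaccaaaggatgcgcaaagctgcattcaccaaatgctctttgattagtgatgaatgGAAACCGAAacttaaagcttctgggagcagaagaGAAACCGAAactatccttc
Socs3, chr11:117969367-117969616, minus strand: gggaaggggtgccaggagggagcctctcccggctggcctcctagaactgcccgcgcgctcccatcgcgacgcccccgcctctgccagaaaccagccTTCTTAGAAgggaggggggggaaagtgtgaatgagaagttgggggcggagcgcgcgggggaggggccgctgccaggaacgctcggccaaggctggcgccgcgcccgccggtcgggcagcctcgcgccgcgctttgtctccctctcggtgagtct
Ifit1 holds 3 matches, a pair of which overlap, 76 to 109 bases before the start. Ddx60 holds 2, and Rsad2 and Gbp7 hold 1 each. The window of Gbp7 also holds 2 matches to TTCNNNGAA, which are not in capitals. The windows of Ifit1, Rsad2 and Ddx60 hold no TTCNNNGAA match. The single match in Socs3 lies 146 to 154 bases before the start.

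The GAAANNGAA core was present in 40 of the 279 windows of genes higher with LIF (14.3%), in 9 of 153 windows of lower genes (5.9%), in 7.1% of the windows of tested genes and in 8.6% of all 32851 windows in the table. Within the interferon list it was in 10 of 15 windows of called genes (66.7%) and in 7 of 18 windows of genes tested and not called (38.9%). Outside that list, 11.4% of the 264 windows of genes higher with LIF held it. TTCNNNGAA was in 28 of the 279 windows of higher genes, 7 of the 153 windows of lower genes (4.6%), 6.7% of those of tested genes and 8.3% of all windows. A match to either motif may overlap a match to the other, and each was counted separately. Among the other named genes the GAAANNGAA core was also in windows of Stat2, Ifih1, Tgtp2, Plod3 and Fbn1, which were higher with LIF, and of Acsbg1, which was lower. Stat3 holds neither motif in its window. A match describes letters only, and no binding was measured.

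Of 7 tested genes of IL-4, IL-13 and IL-33 signalling, 3 (42.9%) were higher with LIF and none lower. The median log2 change was 0.57. Il4ra was at 136.8 and 147.2 CPM with LIF and at 83.3 and 76.5 CPM with IL6, a log2 change of 0.83 (SE 0.08, adjusted p = 0.000156). Il13ra1, the chain that pairs with the IL-4 receptor to bind IL-13, was at 257.5 and 269.2 CPM with LIF and at 172.3 and 157.5 CPM with IL6, a log2 change of 0.68 (SE 0.07, adjusted p = 0.000178). The controls of Il13ra1, at 112.5 and 126.0 CPM, lay below both IL6 libraries, and IL6 stood 0.47 above them on the log2 scale with an adjusted p of 0.103. Il33, an alarmin of the IL-1 family, was at 29.2 and 27.4 CPM with LIF, at 20.6 and 13.7 CPM with IL6 and at 9.4 and 9.7 CPM in the controls. Its IL6 libraries differed from each other, and the log2 change of 0.72 (SE 0.15, adjusted p = 0.0323) lost its call in 8 alternatives, among them without either control, LIF or OSM replicate (adjusted p up to 0.235). The count of 3 was 2 in those alternatives, and without LIF replicate 1 the median of the list was 0.23.

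Several genes that remodel the extracellular matrix were higher with LIF. Of 23 tested genes for crosslinking and remodelling, 7 (30.4%) were higher and none lower (median log2 change 0.26). Adamts4, a protease that cuts aggrecan, was at 118.3 and 128.2 CPM with LIF and at 75.1 and 84.6 CPM with IL6, a log2 change of 0.63 (SE 0.09, adjusted p = 0.0045). Plod3, a lysyl hydroxylase that modifies collagen, was at 162.5 and 164.8 CPM with LIF and at 120.1 and 122.1 CPM with IL6, a log2 change of 0.43 (SE 0.06, adjusted p = 0.00136). Lox, the enzyme that crosslinks collagen and elastin, was at 728.0 and 790.9 CPM with LIF, at 641.7 and 504.6 CPM with IL6 and at 357.9 and 349.5 CPM in the controls, with an adjusted p of 0.103 for IL6 minus control. The LIF against IL6 change of Lox was 0.41 (SE 0.09, adjusted p = 0.0423), and it was not called in 8 alternatives (adjusted p up to 0.346), among them leaving out IL6 replicate 2, either LIF replicate or either OSM replicate. Adamts4 was not called without LIF replicate 2. The count of 7 was 3 without LIF replicate 1 or either OSM replicate and 2 without LIF replicate 2.

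Among 20 tested collagens and matrix glycoproteins, 5 were higher and 2 lower with LIF (35% called, median log2 change 0.12). Col6a1 and Col6a2 encode chains of collagen VI, which surrounds muscle fibres. Col6a1 was at 555.0 and 532.4 CPM with LIF and at 323.6 and 411.1 CPM with IL6, a log2 change of 0.57 (adjusted p = 0.0143). Col6a2 was at 179.7 and 165.8 CPM with LIF and at 95.6 and 123.4 CPM with IL6, a log2 change of 0.66 (adjusted p = 0.0144). In both genes the control libraries overlapped the IL6 libraries. The 2 lower genes were Thbs1 and Thbs2, which encode thrombospondins, matrix proteins that limit vessel growth. Thbs1 was at 84.4 and 93.9 CPM with LIF and at 148.4 and 122.5 CPM with IL6, a log2 change of -0.60, and Thbs2 changed by -0.61. All 4 calls were lost without LIF replicate 1, and those of Col6a1, Col6a2 and Thbs2 also without LIF replicate 2. The counts of 5 and 2 became 0 and 0 without LIF replicate 1, 1 and 1 without LIF replicate 2, 3 and 3 without IL6 replicate 1, and 3 and 2 without either OSM replicate.

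**Figure D3:**
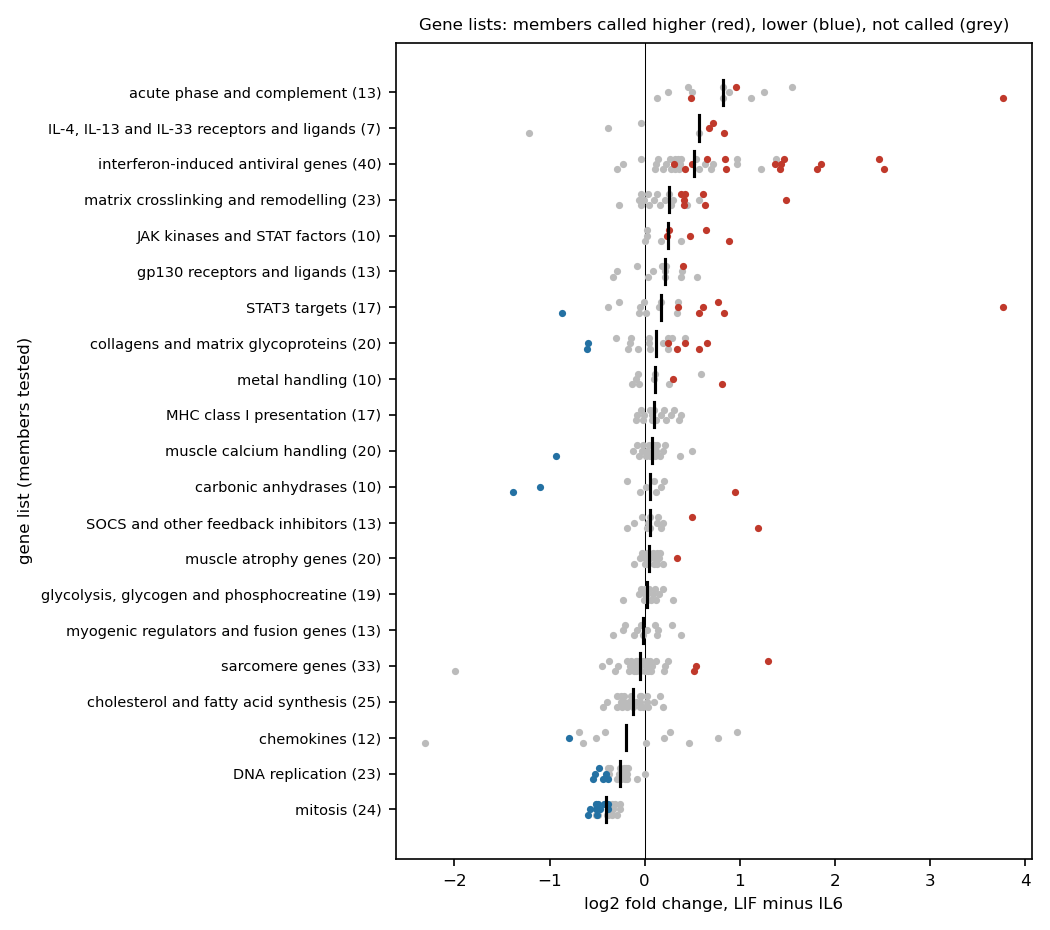
Log2 fold change of LIF minus IL6 for every tested member of the 21 pathway lists, with red, blue and grey points for members called higher, called lower and not called; black bars are medians. The median is 0.82 in the acute phase list and -0.41 in the mitosis list.

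The genes of cell division that were called were lower with LIF. In the mitosis list all 24 genes were tested, with a median log2 change of -0.41. Of these, 10 (41.7%) were called lower, where 1.02% of all tested genes were, and none higher. In each of the 24 genes both LIF libraries lay below both IL6 libraries, as they did in 22.3% of all tested genes, and the changes ran from -0.60 to -0.26. Birc5, which encodes survivin, a subunit of the chromosomal passenger complex, was at 28.2 and 24.6 CPM with LIF and at 39.0 and 39.5 CPM with IL6, a log2 change of -0.57 (SE 0.09, adjusted p = 0.00398). Kif11, the motor that separates the spindle poles, was at 51.5 and 46.5 CPM with LIF and at 65.7 and 69.7 CPM with IL6, a log2 change of -0.47. Cenpe, a kinetochore motor, changed by -0.51 and Kif20a, a motor of cytokinesis, by -0.49. Kif20a shares 31.2% of its 50-base stretches with other transcripts. In the DNA replication list 6 of 23 tested genes (26.1%) were lower and none higher (median -0.26). Of the 23, 21 were lower without overlap. Mcm5, a subunit of the replicative helicase, was at 15.4 and 14.0 CPM with LIF and at 20.7 and 21.5 CPM with IL6, a log2 change of -0.52 (SE 0.09, adjusted p = 0.00974), and Pole, the catalytic subunit of DNA polymerase epsilon, changed by -0.48.

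The summed level of the mitosis genes was 1190.6 and 1092.8 CPM with LIF, 1449.6 and 1541.0 CPM with IL6 and 1519.7 and 1795.8 CPM in the controls. In bulk RNA, fewer dividing cells and less of this RNA per cell cannot be told apart. The number of mitosis genes called, 10, differed with the libraries and the test used: 7 without either IL6 replicate, 7 without either OSM replicate, 2 without LIF replicate 1, 0 without LIF replicate 2, 15 and 14 without control replicates 1 and 2, 13 with only the LIF and IL6 libraries and 13 with DESeq2. The count was 22 with no filter on low counts and 21 with the replicate number as a block. None was called higher in any of these, and the median log2 change stayed between -0.50 and -0.36. Without LIF replicate 2 the adjusted p was 0.0973 for Birc5 and up to 0.285 for the other 3 motors and kinetochore genes named. The 6 replication genes became 3 without IL6 replicate 1, 4 without either OSM replicate and 0 without either LIF replicate.

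**Figure D4:**
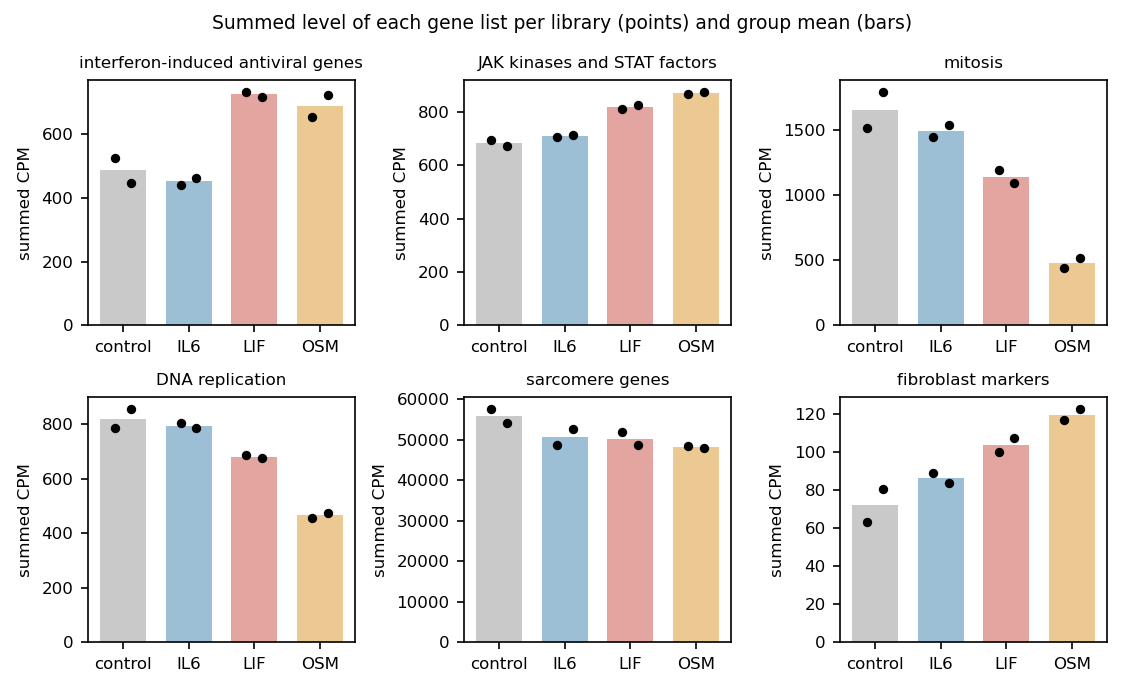
Summed level of 6 gene lists in CPM, with bars for the mean of the 2 libraries of a group and points for the libraries. The LIF points of the interferon list lie at 734.3 and 717.6 CPM against 440.7 and 464.3 CPM with IL6, and those of the mitosis list at 1190.6 and 1092.8 CPM against 1449.6 and 1541.0 CPM.

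Of 33 tested sarcomere genes 3 (9.1%) were higher with LIF and none lower, where 1.76% of all tested genes were higher, and the median log2 change was -0.05. Mybpc2, the fast-fibre myosin-binding protein C, was at 24.9 and 21.7 CPM with LIF and at 8.13 and 10.8 CPM with IL6, a log2 change of 1.30 (SE 0.15, adjusted p = 0.000405). Des, which encodes the intermediate filament desmin, was at 1536.0 and 1442.1 CPM with LIF and at 988.8 and 1055.7 CPM with IL6, a log2 change of 0.54 (SE 0.06, adjusted p = 0.000486). Actn3, the fast-fibre alpha-actinin of the Z-disc, was at 329.4 and 310.0 CPM with LIF and at 229.1 and 218.4 CPM with IL6, a log2 change of 0.52 (SE 0.06, adjusted p = 0.000785). These 3 remained called under every alternative, and without control replicate 1 or 2 the list had 4 genes higher and 2 lower. Myh4, a fast myosin heavy chain, was at 37.9 and 38.1 CPM with LIF and at 35.5 and 36.5 CPM with IL6 (log2 change 0.08, SE 0.14, adjusted p = 0.881).

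None of the 13 myogenic regulators and fusion genes was called by edgeR, with 4 at an unadjusted p under 0.05, while DESeq2 called 3 lower. Myog, the transcription factor myogenin, was at 841.1 CPM in each LIF library and at 1043.6 and 1072.6 CPM with IL6. Its log2 change of -0.33 (SE 0.09) had an adjusted p of 0.063, and it was called lower in 6 alternatives, including those without control replicate 1 or 2. Mef2c was at 886.0 and 858.9 CPM with LIF and at 967.4 and 1046.2 CPM with IL6 (log2 change -0.21, adjusted p = 0.1), and was called by DESeq2 and without IL6 replicate 1. Of 20 atrophy genes 1 (5%) was higher and none lower (median 0.05), where 1.76% of all tested genes were higher. That gene, Fbxo32, encodes the ubiquitin ligase atrogin-1 and was at 79.0 and 80.6 CPM with LIF and at 64.4 and 61.8 CPM with IL6, a log2 change of 0.34 (SE 0.07, adjusted p = 0.0233) that was not called without either LIF or either OSM replicate (adjusted p up to 0.236). Trim63, the ubiquitin ligase MuRF1, was at 67.0 and 63.1 CPM with LIF and at 47.5 and 69.3 CPM with IL6, with overlapping groups and an adjusted p of 0.718. It was called without IL6 replicate 2, at an adjusted p of 0.0071. Eda2r, a receptor of the tumour necrosis factor family, overlapped between the groups (log2 change 0.06, adjusted p = 0.801). Without IL6 replicate 2, 2 atrophy genes were called higher. Of 20 calcium-handling genes Cacna1g alone was called (5%).

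Car12, a membrane-bound carbonic anhydrase, moved opposite to Car3 and Car8. It was at 31.5 and 33.9 CPM with LIF, at 17.0 and 16.9 CPM with IL6 and at 14.2 and 15 CPM in the controls, a log2 change from IL6 of 0.95 (SE 0.08, adjusted p = 3.01e-05). Of 10 tested carbonic anhydrases 1 was higher and 2 lower, or 1 lower without LIF replicate 1. Of 10 metal-handling genes 2 were higher and none lower, with 0 to 4 higher when libraries were left out in turn. Mt2, a metallothionein, was at 445.5 and 456.1 CPM with LIF and at 306.8 and 206.5 CPM with IL6, a log2 change of 0.81 (SE 0.15, adjusted p = 0.0338) that was not called without either control or either LIF replicate. Another gene on the opposite strand overlaps 73.5% of its exon bases. Slc39a1, a zinc importer, changed by 0.30 and was not called without IL6 replicate 1 or without either LIF or OSM replicate. Of 12 tested chemokines Cx3cl1 was the sole gene called, and 2 were lower without either control replicate or without IL6 replicate 2. It encodes fractalkine, a membrane-bound chemokine, and was at 47.9 and 55.5 CPM with LIF and at 98.3 and 81.2 CPM with IL6, a log2 change of -0.80 (SE 0.10, adjusted p = 0.00162).

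In 3 further lists edgeR called no gene. Of 17 genes of MHC class I presentation, 2 had an unadjusted p under 0.05, and DESeq2 called 0. Of 25 genes of cholesterol and fatty acid synthesis, 9 had an unadjusted p under 0.05, and DESeq2 called 2, both lower. Of 19 genes of glycolysis, glycogen and phosphocreatine, 1 had an unadjusted p under 0.05, and DESeq2 called 0. Their median log2 changes were 0.10, -0.12 and 0.02. Of the 25 cholesterol genes, 11 were lower and 2 higher with LIF without overlap. Over all tested genes these shares were 22.3% and 21.3%. With no filter on low counts, and also with the replicate number as a block, edgeR called 5 cholesterol genes lower and 2 MHC genes higher. Without IL6 replicate 2 edgeR called 1 gene higher and 4 lower among the cholesterol genes and 1 higher among the MHC genes. The glycolytic genes Gapdh and Pkm changed by -0.04 and 0.00, although each shares over 10% of its 50-base stretches with other transcripts.

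Markers of the labelled cell type were present: the 8 myotube markers summed to 16893.8 to 20440.3 CPM over the control, IL6 and LIF libraries, and Des was the sole gene of them called. Of 6 markers of myoblasts and satellite cells, Sdc4 was higher with LIF (log2 change 0.26, adjusted p = 0.0369, not called without IL6 replicate 2 or without either LIF or OSM replicate), and Pax7 was not called (0.11). The 9 fibroblast markers summed to 99.8 and 107.3 CPM with LIF, 88.9 and 83.9 CPM with IL6 and 63.3 and 80.5 CPM in the controls, and Lum and Tcf21 were at 0 counts in every library. Of the 4 tested, Ly6a, a surface antigen that interferon also induces, was the sole gene called, at 66.0 and 71.2 CPM with LIF and 48.8 and 47.2 CPM with IL6 (log2 change 0.52, adjusted p = 0.0294, not called without any 1 of the IL6, LIF or OSM replicates). Without Ly6a the sums were 33.8 and 36.1 CPM with LIF and 40.1 and 36.7 CPM with IL6. The part of fibroblasts in the matrix gene results was not tested. Markers of macrophages and leukocytes summed to 15.7 to 16.1 CPM with LIF and 11.2 to 16.3 CPM with IL6, those of endothelial cells to 5.19 to 6.05 and 5.09 to 6.08 CPM, and those of Schwann cells to 2.18 to 2.54 and 3.01 to 3.54 CPM. The 6 smooth muscle and pericyte markers summed to 614.8 to 653.8 CPM with LIF and 521.0 to 593.5 CPM with IL6, nearly all from Acta2, and adipocyte markers to under 1 CPM in each of the 4 libraries. By edgeR none of the genes of these 5 lists was called, with 1 smooth muscle or pericyte marker at an unadjusted p under 0.05, and DESeq2 called 0.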

How the data were processed

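RNA was isolated from mouse primary myotubes and made into libraries with a stranded poly(A) kit, per the labels' protocols. The authors deposited raw read counts per gene, 1 file per library, with no pooling of replicates. The submitters' processing notes name Trim Galore 0.6.5, STAR 2.7.3a, HTSeq 0.11.1 and DESeq2 1.34.0, FastQC 0.11.9 and MultiQC 1.12, and the builds GRCm39 and mm39. The strand setting and annotation release are not given in the sources used here, so reads of genes overlapping on opposite strands may be mixed. Summary rows for unassigned reads held 11.72% to 12.66% of alignments and were left out of library sizes and tests.

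The 53647 Ensembl identifiers were given symbols from GENCODE M21, which matched 52093 of them with 99.8% of counts. A symbol held by several identifiers went to the identifier with the most counts. As M21 describes GRCm38, coordinates are printed only for RefSeq promoters of GRCm38.p6. Shared 50-base stretches and exon overlap were computed from M21. Of 90 named genes 13 shared over 10% of stretches, and 9 overlapped another gene over more than 10% of exon bases. The 13 included Mt2 (45.5%), Slc39a1 (21.8%), Fbn1 (20.1%), Myh4 (18.9%), Plod3 (13.3%) and Stat5a (10.8%).

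Counts were filtered with filterByExpr (minimum count 10), scaled by TMM and fitted in edgeR 4.0.16 (R 4.3.3) with a mean per group over all 8 libraries, robustly, with 4 residual degrees of freedom and a biological coefficient of variation of 6.42%. The quasi-likelihood F test was adjusted by Benjamini and Hochberg over 15603 genes, with calls at an adjusted p under 0.05. On simulated counts for this comparison (15341 genes) the test recovered 80.6% of genes changed 1.5-fold and 100% of those changed 2-fold and 4-fold. It called 16 unchanged genes. The simulation gave every group the same spread and changed only genes averaging at least 50 counts. The real IL6 libraries stood further apart than the LIF libraries, so recovery in the real comparison may differ. The lists, their members and the rule for naming genes were chosen with earlier results of these data known, so the lists are described by counts and medians and given no test. By that rule the text gives values for the 12 largest rises and falls among called protein-coding genes that averaged 100 counts or more and had no overlap between the groups, up to 4 called genes per list and direction with the smallest p (or 2 abundant genes where none was called), and a fixed set of receptor, signalling and muscle genes. Other list members were named after their values were seen. The values of 1 gene covered by the rule are not reported here. Alternatives were another scaling, no filter or a minimum count of 50, DESeq2 1.42.0, fits to fewer libraries, a replicate block, no robust estimation and each library left out in turn.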

Additional observations from a re-analysis of the deposited data

How the results depend on the processing

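The 434 genes called (275 higher, 159 lower, 65 changed at least 2-fold) became 425 with size factors by median of ratios, 394 with a minimum count of 50, 498 with DESeq2, 412 without robust estimation and 346 with only the LIF and IL6 libraries. Larger shifts came with no filter on low counts (985 called, 545 higher, 440 lower, 111 at least 2-fold) and without both OSM libraries (229 called, 146 higher, 83 lower). With each library left out in turn the counts ranged from 82 to 739 called, 67 to 422 higher, 15 to 317 lower and 31 to 94 at least 2-fold. The cause of these shifts was not tested.

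With the replicate number as a block, 826 genes were called (468 higher, 358 lower). The labels give the numbers no meaning beyond a name. Differences between replicates 1 and 2 correlated across genes at r = 0.013 between IL6 and LIF, 0.181 between control and IL6, 0.103 between control and LIF, and 0.007 to 0.074 between OSM and the other groups. As not every pair of groups exceeded 0.1, the samples were not treated as paired.

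Of 66 named genes that were called, 26 remained called under every alternative and 40 lost the call under at least 1 of them, 24 of these only without a LIF replicate. No named gene that was called changed sign, which was nearly certain beforehand because the LIF and IL6 libraries of called genes did not overlap. Another 4 were called only under an alternative. Counting error and 2 libraries per group limit small changes.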
